A study of Mus musculus with 10 samples.

Results

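The 9 genes described here mark GABAergic interneurons, the inhibitory neurons that are a minority in hippocampal area CA1. They were taken by name, as widely used interneuron genes and not by their peaks, but with earlier results of these data known. They comprise Gad1, Gad2, Slc32a1, Pvalb, Sst, Vip, Npy, Reln and Erbb4, out of 21883 protein-coding genes of the mouse RefSeq annotation. The histone mark H3K4me3 (histone H3 trimethylated at lysine 4) was mapped by chromatin immunoprecipitation and sequencing of NeuN-sorted neuronal nuclei from CA1, and each library is represented by its list of enriched intervals (peaks). The groups were 4 libraries from CamkdeltaC transgenic mice and 4 from wildtype littermate controls, all from males aged 3 months. The protocol also names vorinostat and vehicle in the drinking water, but no library carries a treatment label. The promoter that drives the transgene is not given in the sources used here, and nothing says whether each library came from a separate animal, so the p-values rest on a spread among libraries that may be technical. A letter in the sample descriptions and one in the names of the peak lists are exchanged between the groups, while the group names match and were used, and peaks of this mark do not check a transgene.

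Interneurons make GABA from glutamate with the decarboxylases GAD67 (Gad1) and GAD65 (Gad2) and load it into synaptic vesicles with the transporter VGAT (Slc32a1). Subclasses are told apart by the calcium-binding protein parvalbumin (Pvalb) and by the neuropeptides somatostatin (Sst), vasoactive intestinal peptide (Vip) and neuropeptide Y (Npy). Reelin (Reln) is a secreted glycoprotein of some interneurons, and the neuregulin receptor ErbB4 (Erbb4) is found mainly on interneurons in this tissue. H3K4me3 lies at the start sites of genes that are active or poised. Most NeuN-positive nuclei of CA1 are pyramidal cells, so at an interneuron gene fewer marked nuclei and less mark per nucleus cannot be told apart in these libraries.

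The 9 genes had 10 start sites in the RefSeq promoter table (build GRCm38.p6, the coordinates of mm10), 2 of them in Pvalb. Promoters of 300 bases, from 250 before to 50 after the start, are printed below 5′ to 3′ on the gene's strand for the genes on which the results turn. CpG dinucleotides are in capitals in the first 4. They show the inner and outer Pvalb promoters, of which the inner carried the mark, and the Slc32a1 and Reln promoters, which had the widest mark and the most CpGs.
Pvalb inner start site (chr15:78204188-78204487, minus strand): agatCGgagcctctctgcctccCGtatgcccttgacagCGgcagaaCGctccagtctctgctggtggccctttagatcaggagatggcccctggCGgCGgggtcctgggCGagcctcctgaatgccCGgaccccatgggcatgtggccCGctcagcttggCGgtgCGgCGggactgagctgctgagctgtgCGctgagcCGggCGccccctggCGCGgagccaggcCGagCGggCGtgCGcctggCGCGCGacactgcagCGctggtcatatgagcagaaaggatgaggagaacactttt
Pvalb outer start site (chr15:78206351-78206650, minus strand): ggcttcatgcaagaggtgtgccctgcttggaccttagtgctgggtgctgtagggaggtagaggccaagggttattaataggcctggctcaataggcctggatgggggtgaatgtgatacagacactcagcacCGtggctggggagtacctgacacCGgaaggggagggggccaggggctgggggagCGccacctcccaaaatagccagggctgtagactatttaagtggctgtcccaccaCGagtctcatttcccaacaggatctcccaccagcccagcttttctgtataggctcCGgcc
Slc32a1 (chr2:158610508-158610807, plus strand): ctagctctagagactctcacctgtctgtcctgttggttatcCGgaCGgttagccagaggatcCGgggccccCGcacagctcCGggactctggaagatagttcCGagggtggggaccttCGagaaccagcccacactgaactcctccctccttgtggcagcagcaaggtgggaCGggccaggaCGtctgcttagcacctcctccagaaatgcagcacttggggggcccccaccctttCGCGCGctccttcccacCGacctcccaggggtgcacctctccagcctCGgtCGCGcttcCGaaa
Reln (chr5:22344656-22344955, minus strand): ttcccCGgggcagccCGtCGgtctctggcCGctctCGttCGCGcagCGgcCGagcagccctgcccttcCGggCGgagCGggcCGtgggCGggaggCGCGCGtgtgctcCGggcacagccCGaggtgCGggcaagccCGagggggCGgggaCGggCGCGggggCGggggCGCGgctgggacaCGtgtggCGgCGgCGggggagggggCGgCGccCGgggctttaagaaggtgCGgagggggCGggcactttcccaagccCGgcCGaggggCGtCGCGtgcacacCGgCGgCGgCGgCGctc

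In the next pair the capitals mark short motifs in the promoters with the narrowest mark and with none. In Sst they mark the cAMP response element TGACGTCA, and in Vip the TATA box letters TATAAA.
Sst (chr16:23890795-23891094, minus strand): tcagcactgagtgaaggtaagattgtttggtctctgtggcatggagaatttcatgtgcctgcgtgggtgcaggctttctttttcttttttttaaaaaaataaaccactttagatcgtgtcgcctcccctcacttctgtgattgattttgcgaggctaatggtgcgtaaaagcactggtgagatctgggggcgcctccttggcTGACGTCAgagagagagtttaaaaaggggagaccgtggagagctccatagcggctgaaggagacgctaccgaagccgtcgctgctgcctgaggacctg
Vip (chr10:5638968-5639267, plus strand): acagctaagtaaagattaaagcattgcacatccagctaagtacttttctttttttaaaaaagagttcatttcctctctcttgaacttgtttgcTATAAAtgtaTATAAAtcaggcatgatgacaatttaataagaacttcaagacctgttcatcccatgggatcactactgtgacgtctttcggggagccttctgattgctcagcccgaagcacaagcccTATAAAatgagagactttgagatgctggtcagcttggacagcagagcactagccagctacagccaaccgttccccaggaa

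The mark was widest at the genes of GABA synthesis and vesicle loading and at Erbb4, and narrowest at the peptide and parvalbumin genes. Breadth is given as the length covered by peaks within 2 kb to each side of the start site. From widest to narrowest, the mean over 8 libraries was 3095 bp at Slc32a1, 2569 bp at Erbb4, 2459 bp at Gad1, 2106 bp at Gad2, 1458 bp at Reln, 1197 bp at Npy, 697 bp at the inner start site of Pvalb, 463 bp at Sst and 0 bp at Vip. Among 14650 genes whose window held a peak in 4 or more libraries, Slc32a1 was wider than 96%, Erbb4 than 87.2% and Gad1 than 83.3%, while Pvalb was wider than 11.7% and Sst than 7.15%. Of these, genes without a start site in the promoter table entered by their better covered gene end. The ranges over the 8 libraries of neighbours in this order overlapped except between Npy and Pvalb and between Sst and Vip. Erbb4 was wider than Gad1, and Reln wider than Npy, in 4 of the 8 libraries each, so these pairs had no order within libraries. Pvalb was wider than Sst in all 8 libraries, by 235 ± 165 bp (SD of 8 differences). Of the mean length at Slc32a1, 1368 bp lay before the start, in a block that also lies over the noncoding RNA gene Gm14204. After the start Slc32a1 had 1726 bp on average, against 1906 bp at Erbb4 and 1934 bp at Gad1. The first place of Slc32a1 thus rests on that block.

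**Figure D1:**
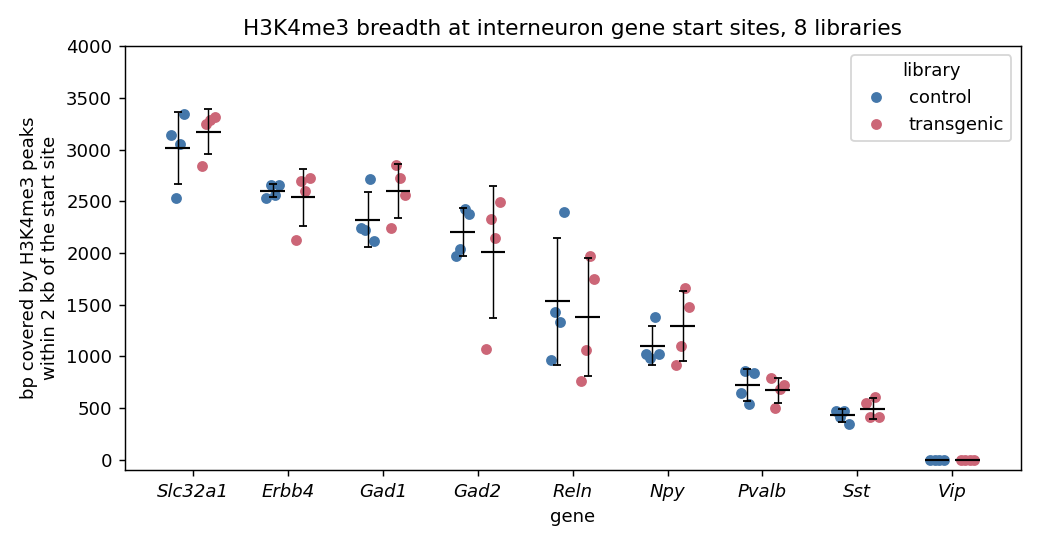
Length covered by H3K4me3 peaks within 2 kb of the start site (y axis, bp) for the 9 genes (x axis, from widest to narrowest), 1 point per library, with the mean and SD of the 4 libraries of each group. Slc32a1 lies between 2529 and 3344 bp, Sst between 351 and 605 bp, Vip at 0, and control and transgenic points overlap at each marked gene.

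Slc32a1, the vesicular GABA transporter gene (chromosome 2, 158607260 to 158615747), carried a mark in a block that lay mainly before its start site (158610758) and crossed it, and in a block after it. Within 2 kb of the start, 3138, 2529, 3053 and 3344 bp were covered in control replicates 1 to 4, and 2844, 3245, 3287 and 3317 bp in transgenic replicates 1 to 4. Control replicate 2 and transgenic replicate 1 were the lowest of their groups, and the groups overlapped. When the peaks of all libraries were joined into union regions, the first ran from position -1732 to 176 bp relative to the start and the second from 210 to 3513 bp. The first lies over both Slc32a1 and the long noncoding RNA gene Gm14204, so its signal cannot be assigned to either gene. The second covered 2312 bp on average and lies within Slc32a1 alone.

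At both decarboxylase genes the mark lay mainly downstream of the start. Gad1 (chromosome 2, 70561303 to 70602014, start site 70562129) had 2244, 2220, 2711 and 2111 bp in control and 2245, 2854, 2722 and 2565 bp in transgenic libraries, in replicate order. Of its mean covered length 78.6% was downstream, and the start base itself lay in a peak in 5 of 8 libraries. The Gad1 mark continued into the gene in further blocks, the nearest from 3211 to 5061 bp after the start and present in all 8 libraries. Its main region also overlaps the noncoding RNA gene Gad1os. Gad2 (chromosome 2, 22621015 to 22693877, start site 22622327) had 1968, 2035, 2423 and 2380 bp in control and 1074, 2328, 2149 and 2489 bp in transgenic libraries. Transgenic replicate 1 stood below the other 7 libraries there. At Gad2 80.2% of the covered length was downstream of the start.

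Over the 11739 genes with a start site and a peak in at least 4 libraries, the median share of covered length downstream was 66.1%, with a middle range (quartiles) of 53.1% to 77%. Gad1 and Gad2 thus lay above that range and Slc32a1, at 55.8%, within it.

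**Figure D2:**
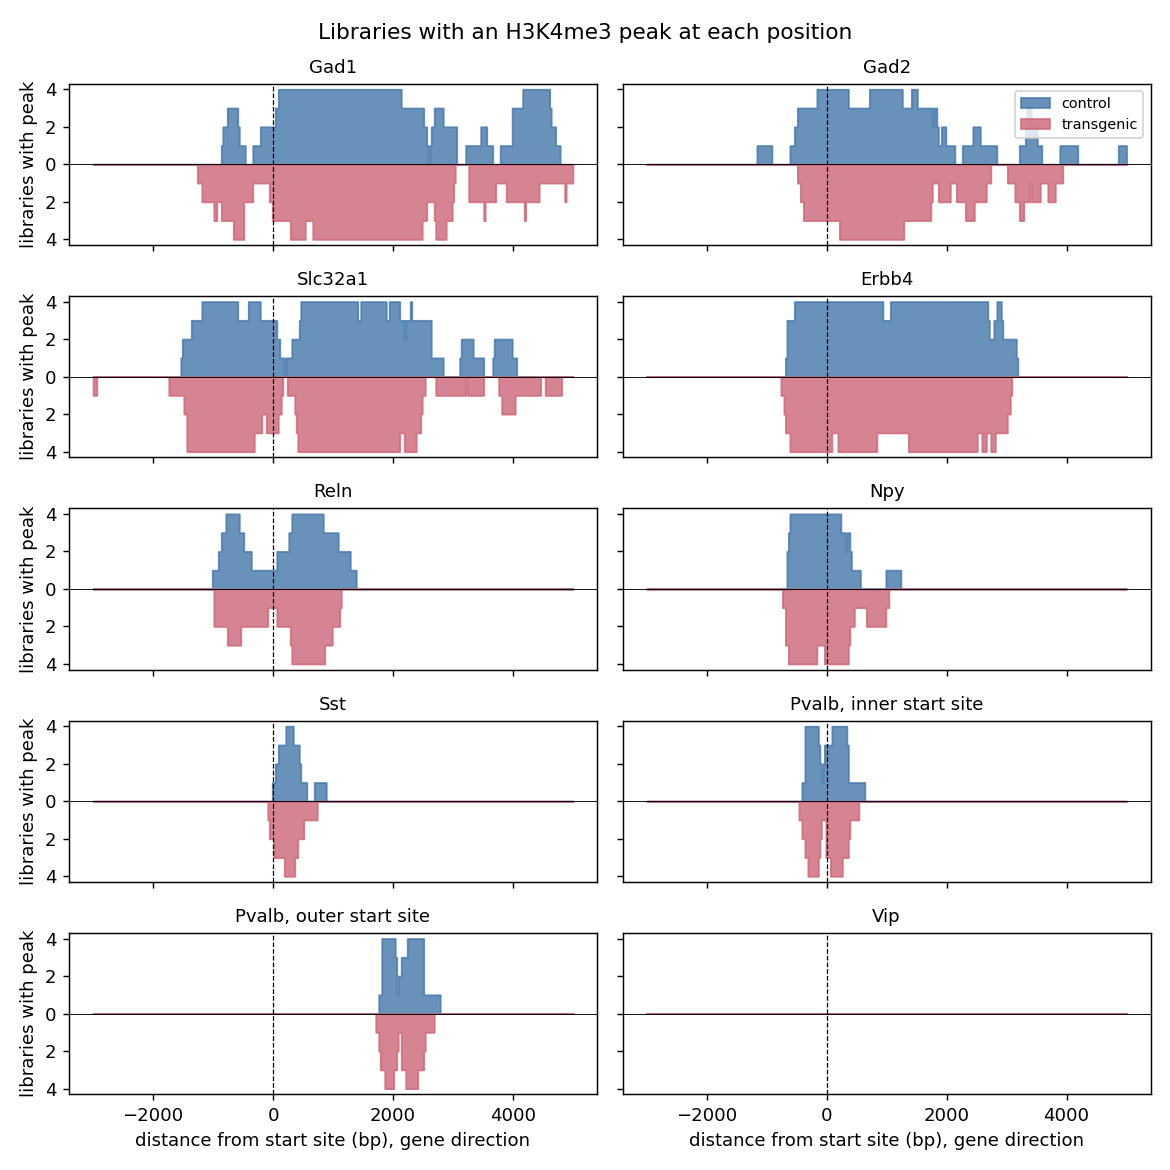
Number of control libraries (blue, upward) and transgenic libraries (red, downward) with a peak at each position, by distance from the start site in bp along the gene (x axis), for the 10 start sites. The mark at Slc32a1 is interrupted just after the start, that at Sst lies almost wholly after it, that at Npy spans it, and at the outer Pvalb start site and at Vip no library has a peak over the start.

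Erbb4, the gene of a receptor tyrosine kinase for neuregulins, had the smallest spread between libraries relative to its mean of the 8 marked genes. It spans 68031884 to 69108576 on chromosome 1 with its start site at 69108059. Within 2 kb of the start 2534, 2658, 2558 and 2656 bp were covered in control and 2130, 2691, 2602 and 2723 bp in transgenic libraries, with transgenic replicate 1 the lowest of the 8. The coefficient of variation over 8 libraries was 7.35%, against 37.9% at Reln. In bp the SD was 189 at Erbb4 and smaller at the narrower Pvalb (131) and Sst (83.3). The Erbb4 union region reached from position -759 to 3184 bp relative to the start, was found in all 8 libraries and held no other annotated gene. Elsewhere in the gene, 1 further region was seen (68046571 to 68046989), in 3 control and 2 transgenic libraries.

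Reln (chromosome 5, 21884454 to 22344705, start site 22344705) had a mark on both sides of a start base that lay in a peak in only 2 of 8 libraries. The covered lengths were 965, 1433, 1330 and 2396 bp in control and 761, 1059, 1974 and 1746 bp in transgenic libraries. The peak caller returned more than 1 peak there in 6 libraries and a single peak in the other 2, control replicate 4 and transgenic replicate 4. The strongest summit lay between 463 and 533 bp after the start in every library, so the position of the peak varied far less than its length.

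The peptide genes differed in where the mark lay. Npy (chromosome 6, 49822710 to 49829507, start site at the first base) had 1025, 981, 1383 and 1020 bp in control and 918, 1105, 1661 and 1480 bp in transgenic libraries. Of this length 45.9% was downstream, a larger share than at only 15.2% of genes, and the strongest summit lay before the start in all 8 libraries, at positions from -518 to -24 bp. Sst (chromosome 16, 23889573 to 23891342, start site 23890844) had 474, 415, 477 and 351 bp in control and 554, 413, 605 and 413 bp in transgenic libraries. There 95.4% of the length was downstream, a larger share than at 95.6% of genes, and the strongest summit lay 130 to 425 bp after the start. The Npy mark thus spanned its start site, with 647 ± 47.3 bp before and 549 ± 243 bp after it (SD, n = 8) and more after than before in 3 libraries, while the Sst mark lay almost wholly after the start. Vip (chromosome 10, 5639193 to 5647617) had no peak within 2 kb of either gene end and none inside the gene in any library, and the lists do not show how much signal would have been needed for a call.

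Pvalb (chromosome 15, 78191112 to 78206400, minus strand) was marked at its inner and not at its outer start site. The inner site (78204237) had 645, 856, 537 and 839 bp in control and 789, 506, 686 and 721 bp in transgenic libraries, in a region from position -456 to 625 bp relative to it. The start base lay in a peak in 6 of 8 libraries. At the outer site (78206400), which is also the annotated end of the gene, no library had a peak over the start, and the 149 to 294 bp counted in its window came from the edge of the inner region. The 300-base inner promoter holds 25 CpGs and the outer one 5.

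By the authors' fold enrichment at the summit, ranked within each library's own list, the 8 marked interneuron genes ranged from weak to moderately strong. The strongest peak at Erbb4 exceeded 72.7% to 85.5% of the peaks in its list, that at Reln 70.4% to 82.1%, and that at Gad1 72% to 81.3%. The 85.5% came from transgenic replicate 1, which had the longest list (102285 peaks) and the lowest Erbb4 fold of the 8 libraries (13.1). A higher rank thus did not always go with a higher fold. At Slc32a1, the widest of the 9, it exceeded 60.9% to 73.9%, so the widest mark did not have the highest rank. The Gad2 peak exceeded 60.1% to 81.3%, and that at Npy 36.7% (transgenic replicate 1) to 77.4%. The Sst peak exceeded 16% to 69.7% and the inner Pvalb peak 29.5% to 76.3%, the Sst range being the lowest of the 8 marked genes at its median (39.4%).

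Set against promoters of like CpG content, which the choice of genes did not use, 4 of the marked genes were wide and 4 narrow. Over 17491 genes with a start site in the table, breadth was larger with more CpGs in the 300-base promoter (Spearman rho 0.72 across genes, which share the same libraries). This value includes genes with no peak, and over the 10820 genes with a peak in all 8 libraries rho was 0.34. Of genes with 3 to 5 CpGs, as Vip with 4, 18.6% had a peak in all 8 libraries and 68.2% had none in any, and of genes with 21 or more 95.3% did. Against genes within 2 CpGs of its own count, Slc32a1 (17 CpGs) was wider than 96.8%, Erbb4 (17) than 90.7%, Gad1 (21) than 85.7% and Gad2 (14) than 78.1%. The Slc32a1 length again includes the block that also lies over Gm14204. Npy (24) was wider than 17.1%, Sst (13) than 16.8%, Reln (47) than 12.8% and Pvalb (25, inner site) than 6.68%. These shares count like genes without a peak, so they cannot be set beside the shares among marked genes given above. Of the genes like Sst 83% had a peak in all 8 libraries, against 94.5% of those like Npy. Reln thus had more CpGs than 98.6% of promoters and a median covered length among like promoters of 2217 bp to compare with its own 1458 bp. Among the 9 genes themselves rho was 0.23.

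**Figure D3:**
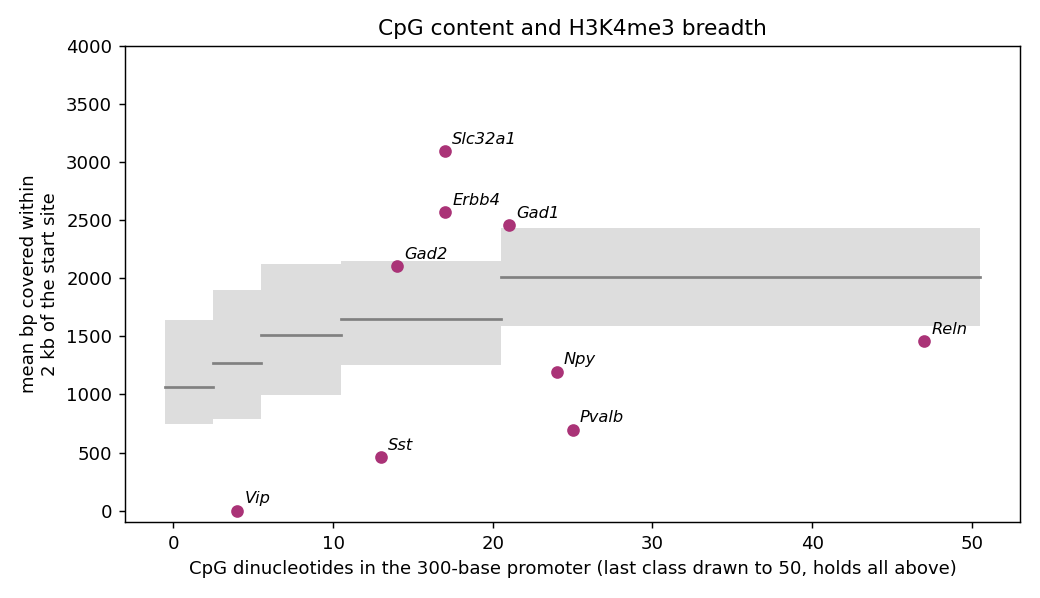
Mean length covered within 2 kb of the start site (y axis, bp) against the number of CpGs in the 300-base promoter (x axis), for the 9 genes (points), with the median (line) and quartiles (grey) of genes with a peak in all 8 libraries in 5 classes of CpG count. Slc32a1, Erbb4 and Gad1 lie above the grey band of their class, Gad2 at its upper part, and Sst, Npy, Pvalb, Reln and Vip below the band of theirs, which holds no gene without a peak.

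Short motifs were searched on both strands in the same promoters, and no matches overlapped one another. The cAMP response element TGACGTCA was found in the Sst promoter alone of the 9 genes, with its first base 48 bases before the start, and in 1.79% of all 32851 promoters. The TATA box letters TATAAA were found 3 times in Vip and once in Gad1, and in 13.6% of all promoters. The GC box GGGCGG was found 6 times in Reln and once each in Gad1 and Npy (35.7% of all promoters), and the E-box CANNTG in Gad1, Gad2, Slc32a1, Reln, Sst and the inner Pvalb promoter (72.3%). A match is a description of the letters and not evidence of a bound site.

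No difference in H3K4me3 breadth between transgenic and control libraries passed the test at an interneuron gene. The comparison asks whether overexpression of this kinase goes along with altered H3K4me3 in CA1 neurons. It was made on covered length within 2 kb of the better covered gene end, for all 14749 genes with a peak there in at least 4 libraries, of which 0% passed an adjusted p of 0.05 in limma (2.79% were higher and 1.34% lower at an unadjusted p under 0.05). Of the 9 genes 8 were tested and 0 passed, each with a limma adjusted p of 1.00. On the log2 scale of bp + 100, centred per library, the difference (transgenic minus control) was 0.21 ± 0.13 (SE) at Gad1, where transgenic libraries had 1770 ± 262 and controls 1496 ± 266 bp (SD, n = 4 each). It was 0.33 without control replicate 3, 0.12 without control replicate 4 and 0.72 with 1 kb to each side, with a limma adjusted p of 1.00, 0.989 and 1.00. Gad2 differed by -0.27 ± 0.23, with 961 ± 327 and 1120 ± 251 bp, and by -0.03 without transgenic replicate 1. With 5 kb to each side the Gad2 difference was -0.01, and with 1 kb it was -0.68. Over the 8 tested genes, 5 lay above and 3 below 0 with a median of 0.09, against 6839 above and 7910 below with a median of -0.01 over all tested genes. At none of the 8 did the groups separate, where 2.35% of all tested genes had groups that did not overlap.

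The precision of these differences varied by gene. Erbb4 had the tightest estimate, -0.07 ± 0.07, with a 95% confidence interval from 0.854-fold to 1.06-fold, and was -0.01 without transgenic replicate 1. Gad1 had an interval from 0.946-fold to 1.42-fold and Npy (0.17 ± 0.16) from 0.876-fold to 1.44-fold. Reln (-0.17 ± 0.28) and Sst (0.14 ± 0.25) had wider intervals, from 0.575-fold to 1.37-fold and from 0.748-fold to 1.63-fold. The gene-end window did not reach the start site of Slc32a1, 4989 bp from its centre, or the inner start site of Pvalb, 2163 bp from it. Centred on the start site, a choice made after the table was seen, Slc32a1 differed by 0.06 ± 0.07 (0.932-fold to 1.16-fold) and Pvalb by -0.09 ± 0.20, neither of which passed.

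**Figure D4:**
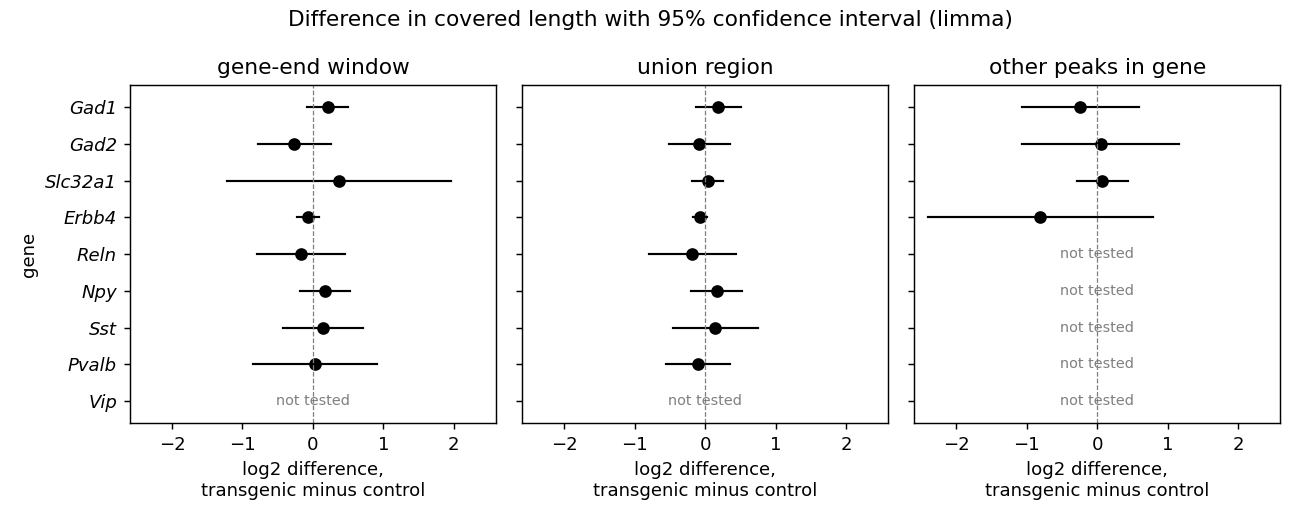
Difference in covered length between transgenic and control libraries (x axis, log2, transgenic minus control) with its 95% confidence interval from limma for the 9 genes (y axis) in the gene-end window, the union region there and other peaks inside the gene. Genes with a peak in fewer than 4 libraries are marked as not tested, each interval shown includes 0, and that of Slc32a1 in the gene-end window and that of Erbb4 inside the gene are the widest.

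Over the full union regions that touch the gene end, 0 of the 8 genes passed, where 0.0135% of 14807 genes did (limma, adjusted p of 1.00 for each of the 8). Of all these genes 3.11% were higher and 1.2% lower at an unadjusted p under 0.05, and 2.55% had groups that did not overlap, as 0 of the 8 did. Gad1 had 3132, 3238, 3490 and 2242 bp in control and 2947, 3885, 3715 and 3436 bp in transgenic libraries, a difference of 0.19 ± 0.14. The lowest value belonged to a control and the highest to a transgenic library, with overlap between them. Erbb4 had 3450, 3673, 3486 and 3777 bp in control and 3148, 3495, 3652 and 3638 bp in transgenic libraries, a difference of -0.07 ± 0.04. As a single union region among 72683, the Erbb4 region had the smallest p of the regions at these genes (log2 -0.15 ± 0.06, limma adjusted p = 0.592). Of all regions 0.0482% passed (0.0454% higher and 0.00275% lower in transgenic libraries), and 3.43% had groups that did not overlap.

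Other peaks inside the gene were tested at 4 of the 9 genes, and 0 passed, as did 0% of 4725 genes (limma; 4.63% were higher and 2.05% lower at an unadjusted p under 0.05, and 4.72% had groups that did not overlap). At Gad1 the mean was 1062 ± 495 bp (SD, n = 4) with the transgene and 1178 ± 527 bp without it. The log2 difference was -0.24 ± 0.36 (limma adjusted p = 0.986). Gad2 had 875 ± 637 and 655 ± 146 bp (0.05 ± 0.49, limma adjusted p = 0.999), the highest value being 1742 bp in transgenic replicate 1. At Slc32a1 this measure took in the block over the start site and gave 1570 ± 82 and 1414 ± 304 bp. At Erbb4 it rested on the single distal region (log2 -0.81 ± 0.70, limma adjusted p = 0.896). Pvalb, Sst, Npy and Vip had no such peak in any library, and Reln had 1 of 200 bp in control replicate 1.

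Transgenic replicate 1, which had the longest peak list (102285 peaks against 51903 to 66811 in the other 7), was the lowest of the 8 libraries at Gad2, Npy, Reln and Erbb4. Over all tested promoters it was the lowest at 40.5%, and its median breadth at promoters that every library marked was 1612 bp against 1647 to 1844 bp in the others. On the centred scale 2 of the 8 tested genes stood above their own mean in that library, Pvalb and Sst. Without it the Gad2 difference over the union region was 0.12 in place of -0.08, and neither passed. The profile of the tested genes over the 8 libraries, averaged, was most like those of Klhdc10 (Pearson r 0.963), Tshr (0.948) and Efhd1 (0.946) among 14741 other promoters, a likeness over 8 points that share the same library effects. The largest deviations in this average were those of Slc32a1, log2 -2.25 in control replicate 1 and 1.24 in transgenic replicate 4. They came from its gene-end window, which did not reach its start site. The average is thus shaped mostly by 1 gene and is not a profile that the 8 genes share.

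Further genes linked to interneurons, not all of them particular to these cells, were mostly marked in all 8 libraries. Of 67 such genes in 4 lists, 55 had a peak within 2 kb of a start site in every library (82.1%), as did 8 of the 9 members. The share was 61.7% over all protein-coding genes, where genes without a start site entered by their gene end. It was 90.9% over genes of CA1 pyramidal and other excitatory neurons, 83.3% over pan-neuronal genes and 70% over those of CA3 and dentate gyrus. High marking was thus not particular to the interneuron lists. Of 54 tested at the gene end 0 passed in limma, 27 lay above and 27 below 0, and the median was 0.00. The lists cover GABA handling (6 of 8 marked in all 8 libraries), interneuron transcription factors (17 of 19), other subclass markers (17 of 23) and ligands, receptors and partners of the 9 genes (15 of 17). Prox1 and Calb2 are also in the list for CA3 and dentate gyrus. The marking of these lists therefore cannot be assigned to interneurons.

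Among transcription factors, most were marked. The following were chosen after their values were seen. Lhx6, a factor of the parvalbumin and somatostatin lineage, had 1992 bp at the start site (mean of 8 libraries), Dlx1 1526 bp and Dlx5 2033 bp. Lhx8 had no peak, and Nkx2-1, which acts upstream of Lhx6 in development, had 105 bp on average from 3 libraries. Nr2f2, a nuclear receptor of caudally born interneurons, had the smallest p of the list, with a mean of 2070 ± 209 bp in controls and 1729 ± 164 bp with the transgene (SD, n = 4 each). Its log2 difference was -0.27 ± 0.10 (limma adjusted p = 1.00), and that of Npas3, the next by p, was 0.11 ± 0.10. The list had 10 genes above and 7 below 0.

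The receptor genes of the 3 peptides listed here each had a wider mark than the gene of their own peptide, as levels over 8 libraries (chosen after their values were seen, with no test). The somatostatin receptor genes Sstr1, Sstr2, Sstr3 and Sstr4 had 1972, 2520, 2992 and 2567 bp against 463 bp at Sst. The neuropeptide Y receptor genes Npy1r, Npy2r and Npy5r had 2691, 2874 and 1640 bp against 1197 bp at Npy, and Vipr1 and Vipr2 had 3409 and 773 bp where Vip had none. Vipr2, the narrowest of these receptor genes, was narrower than Npy, the gene of another peptide. The Reelin receptor genes Lrp8 and Vldlr and the adaptor gene Dab1 had 2951, 2819 and 2618 bp. Of the neuregulins that bind ErbB4, Nrg3 had 3712 bp and Nrg2 2428 bp, while Nrg1 and Nrg4 had no peak at the gene ends or start sites examined. The smallest p of the list belonged to Sstr1 (log2 -0.14 ± 0.07, limma adjusted p = 1.00) and Nrg3 (0.07 ± 0.05).

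In the GABA-handling list all 6 tested genes lay above 0, with a median of 0.04. Slc6a11, the gene of the GABA transporter GAT-3 (chromosome 6, 114131241 to 114249886), had 961, 806, 1126 and 1264 bp in control and 1294, 1656, 1598 and 1810 bp in transgenic libraries. Every transgenic value lay above every control value, the lowest of the one being 1294 and the highest of the other 1264 bp. Groups did not overlap at 2 of the 54 tested further interneuron genes, against 2.35% of all tested genes, the other being Dab1 (2307 to 2409 bp in control and 2422 to 2518 bp in transgenic libraries, log2 0.05 ± 0.06). The log2 difference was 0.56 ± 0.12, or 1.47-fold (limma adjusted p = 0.507), and it did not pass. GAT-3 is known mainly from astrocytes. The summed covered length of 8 astrocyte markers was 4503 to 5630 bp in control and 4153 to 6370 bp in transgenic libraries, with Aldh1l1 and S100b at 0, and its part in the Slc6a11 values was not tested. Slc6a13 had no peak, and Gphn, the gephyrin gene of the inhibitory postsynapse, had none at its gene ends but 2915 bp at its start site.

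Among other subclass markers 5 tested genes lay above and 12 below 0, and the smallest p belonged to Cnr1, the cannabinoid receptor gene of cholecystokinin interneurons (log2 -0.13 ± 0.06, limma adjusted p = 1.00, and 0.00 at the start site), and Crhbp (-0.26 ± 0.14). Cort, Htr3a, Sncg and Tac2 had no peak in any library, like Vip. Cck had 2732 bp and Cnr1 3814 bp at the start site, both genes that pyramidal cells also express.

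**Figure D5:**
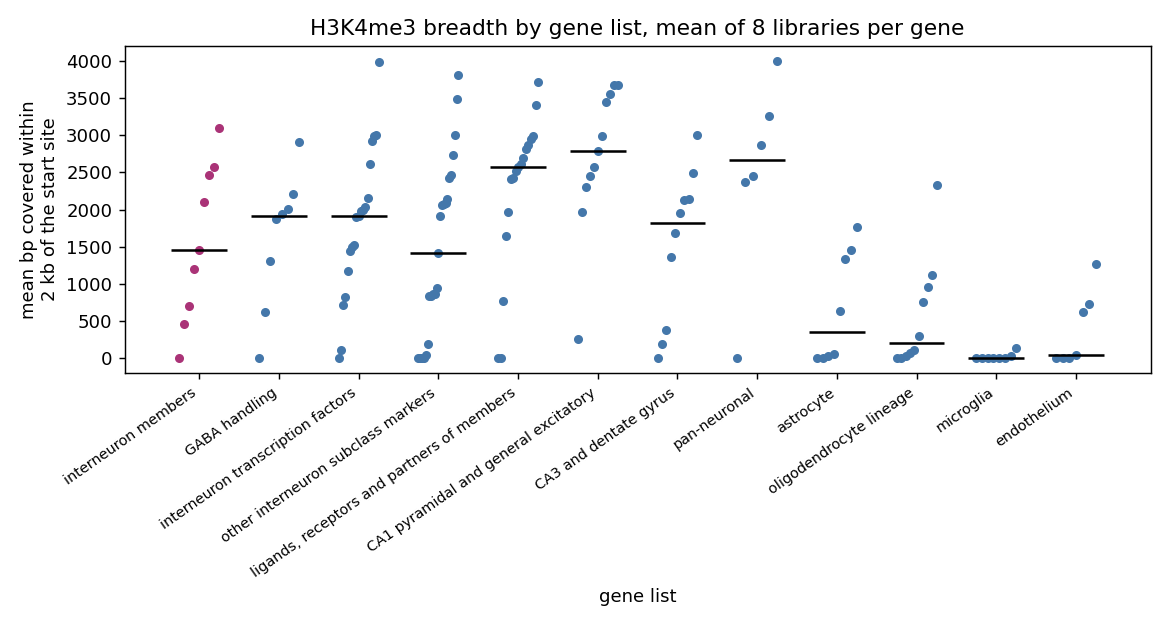
Mean length covered within 2 kb of the start site over 8 libraries (y axis, bp), 1 point per gene, by gene list (x axis), with the median of each list as a line. The 9 members run from 0 to 3095 bp, the 10 genes of pyramidal and other excitatory neurons with a peak in all 8 libraries lie between 1969 and 3680 bp, and 6 of 8 microglial markers are at 0.

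Markers of other cells placed these values. Of genes with a peak at the start site in all 8 libraries, the median breadth was 1782 bp over the 8 marked interneuron genes, 2889 bp over 10 marked genes of CA1 pyramidal and other excitatory neurons, 2127 bp over 7 of CA3 and dentate gyrus, and 1806 bp over all genes. On the same measure it was 2082 bp over the 55 marked further interneuron genes and 2868 bp over 5 pan-neuronal genes. It was 1398 bp over 4 astrocyte, 1037 bp over 4 oligodendrocyte-lineage and 1000 bp over 2 endothelial genes. These are descriptions of chosen lists. Of 6 pan-neuronal genes 5 had a start-site peak in all 8 libraries, and the other, Rbfox3 (the gene of NeuN), had none at its start site in the promoter table. Within 2 kb of a gene end all 6 had a peak in every library. Among markers of non-neuronal cells, which the sort for NeuN selects against, 4 of 8 astrocyte, 4 of 10 oligodendrocyte-lineage, 2 of 7 endothelial and 0 of 8 microglial genes did. Those marked throughout were Slc1a3, Gja1, Fgfr3 and Gjb6, then Mbp, Cnp, Cldn11 and Olig1, and Cldn5 and Kdr.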

How the data were processed

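Peak lists of 8 H3K4me3 libraries were analysed, and the 2 input samples (1 per genotype) were not analysed here. The build was mm10, and MACS2, Bowtie2 2.0.2, DiffBind, limma, deepTools 3.0.1, FastQC 0.11.5 and SAMtools 1.3.1 are named in the submitters' processing notes, without roles or settings. For each peak the authors deposited coordinates, a score in whole numbers, the ratio of enrichment (fold) at the summit and the −log10 of its p-value and q-value. The lists hold no read counts, so depth is unknown, and a deeper library can give more and wider peaks.

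Overlapping peaks were merged per library. Covered length was measured within 2 kb of the better covered gene end, in the union regions of the 8 lists that touch this window, and at other peaks inside the gene. Genes marked in 4 or more libraries were tested on log2(bp + 100), centred on each library's median, with limma 3.58.1 in R 4.3.3 (trended, robust) and Benjamini-Hochberg adjustment over all genes. The fit was checked on simulated data. Of tested genes with a start site in the RefSeq promoter table (GRCm38.p6), 86.7% had it inside the gene-end window. The window at the start site was added after the table was seen. It took the best covered start site of each gene, and the better covered gene end for genes without one in the table. The start-site shares and medians over all protein-coding genes include the latter. Fold changes on the log2(bp + 100) scale understate changes at thinly covered genes. Of each further interneuron list the 2 genes with the smallest p and those without a peak were named, except where a result is not reported here. The members and lists were chosen with earlier results of these data known.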

Additional observations from a re-analysis of the deposited data

Results flagged for a closer look

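In 57 groups of 4 values with any spread, 6 values stood apart from the other 3 by more than the 95% critical gap. Chance alone gives about 1 in 20 groups if the values are independent and normally spread. The groups here share peaks, with the same values repeated at Npy, Reln and Sst, so the count cannot be set against that rate. At Npy, control replicate 3 had 1383 bp where the other controls had 981 to 1025 bp, a value that counts 3 times because the gene-end window, the union region and the start-site window hold the same peaks. At Gad2, transgenic replicate 1 had 475 bp in the gene-end window where the other transgenic libraries had 1068 to 1177 bp. At Slc32a1 the same library had 2844 bp in the start-site window against 3245 to 3317 bp. At Reln, control replicate 1 had the only peak inside the gene, 200 bp, where the other controls had 0, a pattern that always stands apart by this rule.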

How the results depend on the processing

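Over 28 gene-level differences and their 611 alternatives, none passed an adjusted p of 0.05 in limma (the smallest was 0.255, at Slc6a11, whose difference stayed between 0.25 and 0.62), and 39 changed sign. The cause of these changes was not tested. Sign changes in the gene-end window were, with equal numbers of top-ranked peaks (51903 per library), Gad1 -0.11, Slc32a1 -0.54 and Npy -0.59; with quantile normalization Pvalb -0.33 and Sst -0.03; with 5 kb to each side Pvalb -0.11 and Sst -0.01; with 1 kb Erbb4 0.05; with array weights Pvalb -0.05 and Reln 0.00; at the start site Pvalb -0.09 and Cnr1 0.00. With equal numbers of peaks, transgenic replicate 1 kept no peak at Npy. Over union regions they were, with equal numbers of peaks, Slc32a1 -0.11 and Npy -0.60; with 5 kb Gad2 0.01 and Sst -0.01; with array weights Gad2 0.05; with quantile normalization Sst -0.06; with −log10 q of at least 5 Pvalb 0.79. Inside genes they were Gad1 0.28 and Slc32a1 -0.07 with the stricter q, and Gad2 -0.04, -0.32 and -0.19 with quantile normalization, equal numbers of peaks and array weights.

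Leaving out each library in turn moved the gene-end difference from -0.32 (without control replicate 1) to 0.70 at Slc32a1, -0.12 (without transgenic replicate 1) to 0.15 at Pvalb and -0.35 to 0.03 (without control replicate 4) at Reln. It ran from 0.12 to 0.33 at Gad1, -0.38 (without control replicate 2) to -0.03 (without transgenic replicate 1) at Gad2, 0.04 (without control replicate 4) to 0.23 at Sst, 0.05 (without transgenic replicate 3) to 0.28 (without control replicate 3) at Npy and -0.11 to -0.01 (without transgenic replicate 1) at Erbb4. Over union regions it ran from -0.18 to 0.12 at Gad2, -0.04 to 0.09 at Slc32a1, -0.21 to 0.02 at Pvalb and -0.36 to 0.02 at Reln, and inside genes from -0.38 to 0.47 at Gad2 and -0.08 to 0.18 at Slc32a1.

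The count over all genes was 0 for gene-end windows and 5 with ordinary variances. For union regions it was 2, and 1 without centring, with the stricter q or at the start site, 0 with 1 kb, 5 kb, equal numbers of peaks or an overlap of at least 50%, 7 with ordinary variances, and 0 to 2 without any 1 library. Inside genes it was 0, and 1 with a pseudocount of 10 bp, with a peak in all 8 libraries or with array weights, 2 without centring or with a peak in at least 1 library, 4 with quantile normalization, 9 with ordinary variances and 0 to 4 without any 1 library. The deviations of same-numbered libraries in the gene-end window had correlations of -0.0632, -0.129, -0.162 and 0.166 for replicates 1 to 4. No control library was most like the transgenic library of its own number. A pairing by number was thus not seen, but these values cannot exclude one. With the replicate block the union-region count was 4, the other counts stayed at 0, and no interneuron gene passed.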
